A study of Mus musculus with 2 samples.

Results

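The 9 genes described here act in bile acid synthesis and in its feedback. They are Hsd3b7, Akr1d1, Slc27a5, Amacr, Acox2, Scp2, Baat, Fgfr4 and Klb, and they were selected by gene symbol, with earlier results of these data known. They make up 9 of the 43346 Ensembl genes in the deposited tables and hold 45 annotated transcripts. The study measured RNA in the liver of healthy mouse embryos of strain B6NCrl at embryonic day 16.5 (E16.5) by total RNA-seq. Its 2 biological replicates form 1 group, with no treatment, mutant or other stage beside it. Each replicate pooled both sexes, from 41 embryos in replicate 2 and a number the labels leave out in replicate 1. Both carry 1 donor identifier, so the spread between the libraries may be partly technical. Levels are in TPM, a unit that divides reads by transcript length and scales each library to a fixed sum.

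Bile acids are made from cholesterol in hepatocytes. Cytochrome P450 enzymes such as CYP7A1 and CYP27A1 hydroxylate the sterol, and HSD3B7 and AKR1D1 modify its ring system. The side chain is activated to a coenzyme A ester and shortened in the peroxisome before the acid is joined to taurine or glycine. In the adult mouse, bile acids returning to the ileum induce FGF15, which reaches the liver through the blood and acts on the receptor FGFR4 with its co-receptor beta-Klotho, encoded by Klb, to lower Cyp7a1.

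Import into the peroxisome often depends on a short signal at the very end of the protein that the receptor PEX5 reads, so the ends of the coding sequences are shown first. Each line gives the last 30 coding bases before the stop codon in the annotated transcript with the longest coding sequence, from GENCODE release M21 on build GRCm38, written 5′ to 3′. Capitals mark the last 3 codons.
Hsd3b7: tgggtgcaggcgatggagggtTCAGCTCGG
Akr1d1: catcctgaatacccatttcatGACGAATAC
Slc27a5: caggctgtgtgtgaaggaaccTGGAATCTC
Amacr: gttgaaagtgataagctaaaaGCCAATCTC
Acox2: ccactgatgcaaagctggaaaCCCAAGCTG
Scp2: cttcagcttcagccgggcaaaGCTAAGCTG
Baat: catctccttccagatttgagcAGTCAGCTC
Fgfr4: cccttccctttctctgactcgCAGACGACA
Klb: ttgaagaaaggccacagcagaGTTTTCAGC
The strict form of the signal was searched on the coding strand as any codon for serine, alanine or cysteine, then any for lysine, arginine or histidine, and last any for leucine or methionine. Of the 9 genes, 1 matched it, Scp2. The same search matched 108 of 21617 mouse protein-coding genes, which is 0.50%. Among 12 peroxisomal partner genes it matched 4. Ends of 2 of those 4 are given for comparison.
Ehhadh: agcttggcaggaccccatagcAGCAAACTG
Acot8: ttgaagcctcaggtgtcagagAGTAAGCTA
A looser feature, seen only once the ends were laid side by side, was a leucine codon in the last place. It was present in Slc27a5, Amacr, Acox2, Scp2 and Baat, 5 of the 9 genes, in 7 of the 12 peroxisomal partners, and in 11.3% of all 21617 genes. These 5 are the genes that act on the side chain or its conjugation, while the ring enzymes Hsd3b7 and Akr1d1 and the membrane proteins Fgfr4 and Klb ended in other codons. A match or its absence describes these letters only and says nothing of where a protein lies.

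All 9 genes were detected at 1 TPM or more in both libraries, against 52.2% of 21474 protein-coding genes. At 10 TPM there were 7, and at 100 TPM only Scp2. The median of the 9 genes was 19.2 ± 0.0707 TPM (SD, n = 2), against 1.49 ± 0.113 TPM over all protein-coding genes and 10.9 ± 0.170 TPM over those detected in both libraries, and 7 of the 9 lay above the last value in both. Their TPM summed to 589.6 in replicate 1 and 622.5 in replicate 2, and Scp2 alone made up 64.9% ± 0.830 of it (SD, n = 2). They took 33659 expected counts in replicate 1 and 36924 in replicate 2, 0.0776% and 0.0781% of the counts on Ensembl genes, which totalled 43364573 and 47263435. The labelled tissue was checked by markers: the 7 hepatocyte genes were all at 10 TPM or more, and their TPM summed to 28439 in replicate 1 and 30283 in replicate 2. The fetal liver is also a blood-forming organ, and the 5 erythroid genes summed to 3312 and 3404 TPM. In such bulk RNA, fewer cells of a type and less RNA per cell cannot be told apart.

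**Figure D1:**
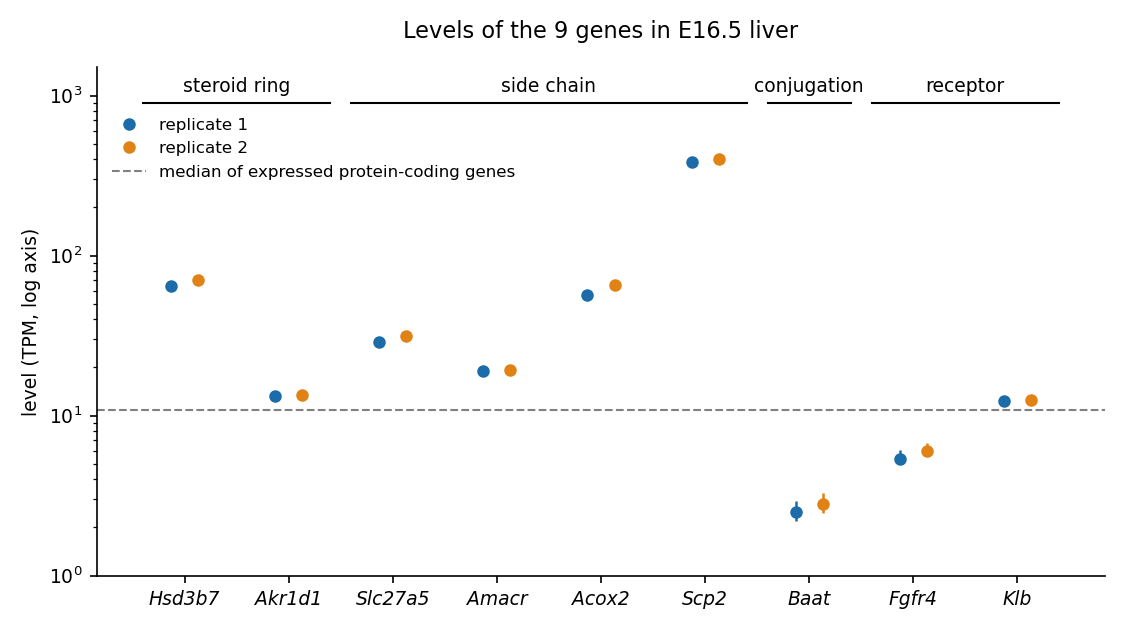
Level of each gene in TPM on a log axis, with replicate 1 left of replicate 2, bars for the intervals deposited by the authors and a dashed line at the median of expressed protein-coding genes, 10.9 TPM. Scp2 lies far above the other 8, the libraries nearly coincide for each gene, and Baat and Fgfr4 lie below the line.

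Of the enzymes that act on the steroid ring, Hsd3b7 stood higher. Hsd3b7 (ENSMUSG00000042289.7, chr7:127800604-127803802, plus strand) encodes the 3-beta-hydroxysteroid dehydrogenase that oxidises the hydroxylated sterols. It had 64.92 TPM in replicate 1 and 70.70 TPM in replicate 2, on 4651 and 5410 expected counts, so it ranked 1442nd and 1298th among the protein-coding genes. Akr1d1 (ENSMUSG00000038641.10, chr6:37530173-37568815, plus strand) encodes the 5-beta-reductase, which gives bile acids their bent ring system. It had 13.26 TPM in replicate 1 and 13.52 TPM in replicate 2, on 1383 and 1534 expected counts. The TPM of Hsd3b7 over that of Akr1d1 was 5.06 ± 0.236 (SD, n = 2), and the values of these genes did not overlap between libraries.

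Slc27a5 and Baat serve the activation and conjugation of bile acids, and their RNA levels were far apart. Slc27a5 (ENSMUSG00000030382.10, chr7:12988346-12998192, minus strand) encodes the bile acid coenzyme A ligase, and it had 29.03 TPM in replicate 1 and 31.57 TPM in replicate 2, on 1872 and 2251 expected counts. Baat (ENSMUSG00000039653.5, chr4:49489422-49506557, minus strand) encodes the enzyme that joins the activated acid to an amino acid, taurine in the mouse for the most part. It was the lowest of the 9, with 2.51 TPM in replicate 1 and 2.82 TPM in replicate 2, on 195 and 229 expected counts. Its deposited intervals ran between 2.19 and 2.94 TPM in replicate 1 and between 2.47 and 3.31 TPM in replicate 2, and it had the fewest counts of the 9. Slc27a5 over Baat came to 11.4 ± 0.262 (SD, n = 2). Without a transcript of Slc27a5 described further on, which later annotation does not hold, the ratio was 7.58.

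The peroxisomal enzymes of the side chain spanned the whole upper range. Amacr (ENSMUSG00000022244.6, chr15:10981756-10996626, plus strand) encodes the racemase that turns the side chain to the form the oxidase accepts. It was the steadiest gene, with 19.10 TPM in replicate 1 and 19.20 TPM in replicate 2, on 1991 and 2162 expected counts. Acox2 (ENSMUSG00000021751.9, chr14:8225511-8259353, minus strand) encodes the branched-chain acyl-CoA oxidase, which takes the first oxidation step. It varied most in TPM relative to its mean, with 56.72 TPM in replicate 1 and 65.52 TPM in replicate 2, on 4785 and 5966 expected counts. Acox2 over Amacr was 3.19 ± 0.313 (SD, n = 2). Scp2 (ENSMUSG00000028603.11, chr4:108043839-108144998, minus strand) encodes the thiolase that cleaves the shortened side chain and, from a shorter RNA, sterol carrier protein 2. It had 386.35 TPM in replicate 1 and 400.63 TPM in replicate 2, on 16323 and 16590 expected counts, which ranked it 214th and 191st among protein-coding genes. A near copy, the pseudogene Scp2-ps2, held 99.9 and 123 expected counts, and Scp2 was the only one of the 9 with counts that were not whole, so its counts include reads divided with other rows.

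Klb stood above its receptor. Fgfr4 (ENSMUSG00000005320.9, chr13:55152640-55168759, plus strand) had 5.37 TPM in replicate 1 and 5.98 TPM in replicate 2, on 716 and 860 expected counts. Klb (ENSMUSG00000029195.7, chr5:65348314-65384007, plus strand) had 12.30 TPM in replicate 1 and 12.56 TPM in replicate 2, on 1743 and 1922 expected counts. Klb over Fgfr4 was 2.29 in replicate 1 and 2.10 in replicate 2, so the co-receptor was higher in both libraries. Fgfr4 was also not the most abundant FGF receptor of the tissue: Fgfr2 had 9.88 TPM in replicate 1 and 11.26 TPM in replicate 2, and Fgfr2 over Fgfr4 was 1.86 ± 0.0305 (SD, n = 2).

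By mean TPM the genes ran from Scp2 through Hsd3b7, Acox2, Slc27a5, Amacr, Akr1d1, Klb and Fgfr4 down to Baat. Hsd3b7 and Acox2 were close: Hsd3b7 over Acox2 was 1.14 in replicate 1 and 1.08 in replicate 2, while Hsd3b7 in replicate 1 lay below Acox2 in replicate 2. Akr1d1 and Klb differed by a ratio of 1.08 with overlapping deposited intervals. The other 6 pairs of neighbours differed by ratios between 1.43 ± 0.0144 for Amacr over Akr1d1 and 5.81 ± 0.201 for Scp2 over Hsd3b7 (SD, n = 2 each), and in these pairs neither the libraries nor the deposited intervals overlapped. The place of Slc27a5 above Amacr rests on a short transcript described further on: without it, an alternative chosen after seeing the data, Slc27a5 had 19.05 TPM in replicate 1 and 21.36 TPM in replicate 2. Slc27a5 over Amacr was then 0.997 in replicate 1 and 1.11 in replicate 2, against 1.52 and 1.64 with it. Across the range, Scp2 had 148 ± 8.38 times the TPM of Baat.

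The replicates differed little in these genes. The ratio of replicate 1 over replicate 2 was taken as the log2 ratio of TPM + 1, and its median over the 12017 genes that averaged at least 100 expected counts, a filter all 9 passed, was subtracted. None of the 9 was past 1.5-fold, against 1.13% of those genes. The log2 ratio lay between -0.19 for Acox2 and 0.01 for Amacr, and its absolute median of 0.10 was close to the 0.11 over all genes. TPM was lower in replicate 1 for 9 of 9, against 54.3% of genes, and the centred ratio was below 0 for 8 of 9. The sign depended on the scaling. Relative to the spike-ins, the 9 log2 ratios lay between 0.14 and 0.33, with a median of 0.23 against 0.29 over all genes. Relative to the summed hepatocyte markers 5 of 9 were below 0, with a median of -0.03 against 0.06 over all genes. In both settings the median of the 9 genes lay below that of all genes, as it did for the centred ratio. Each of these scalings shifts all genes of a library by 1 common factor. The order of the medians is therefore nearly fixed, and its recurrence is not separate evidence. The deposited intervals of the libraries did not overlap for Hsd3b7 and Acox2, 2 of 9, against 25.4% of genes.

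Markers of cell types differed between the libraries to unequal degrees. Hepatocyte markers had a median log2 ratio of -0.13, and 6 of 7 were lower in replicate 1. The 5 bile duct genes summed to 23.9 TPM in replicate 1 and 40.0 TPM in replicate 2, and all were lower in replicate 1. Only 2 of them were past 1.5-fold, Krt19 at 2.50 and 8.28 TPM and Epcam at 0.76 and 5.75 TPM. Krt7, Sox9 and Spp1 were not. The 4 stromal genes summed to 204 and 247 TPM. The 4 intestinal genes summed to 7.87 and 16.3 TPM, with Cdx1 and Cdx2 at 0 counts in replicate 1, and the 4 pancreatic genes to 13.1 and 26.5 TPM, with Pdx1 at 0 counts in replicate 1. The 4 endothelial genes summed to 58.1 and 60.4 TPM and the 4 macrophage genes to 242.6 and 260.0 TPM. The median log2 ratio was -0.05 for endothelial, -0.07 for macrophage and -0.06 for the 5 erythroid genes, with none of these genes past 1.5-fold. The part of these cell types in the small differences of the 9 genes was not tested.

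**Figure D2:**
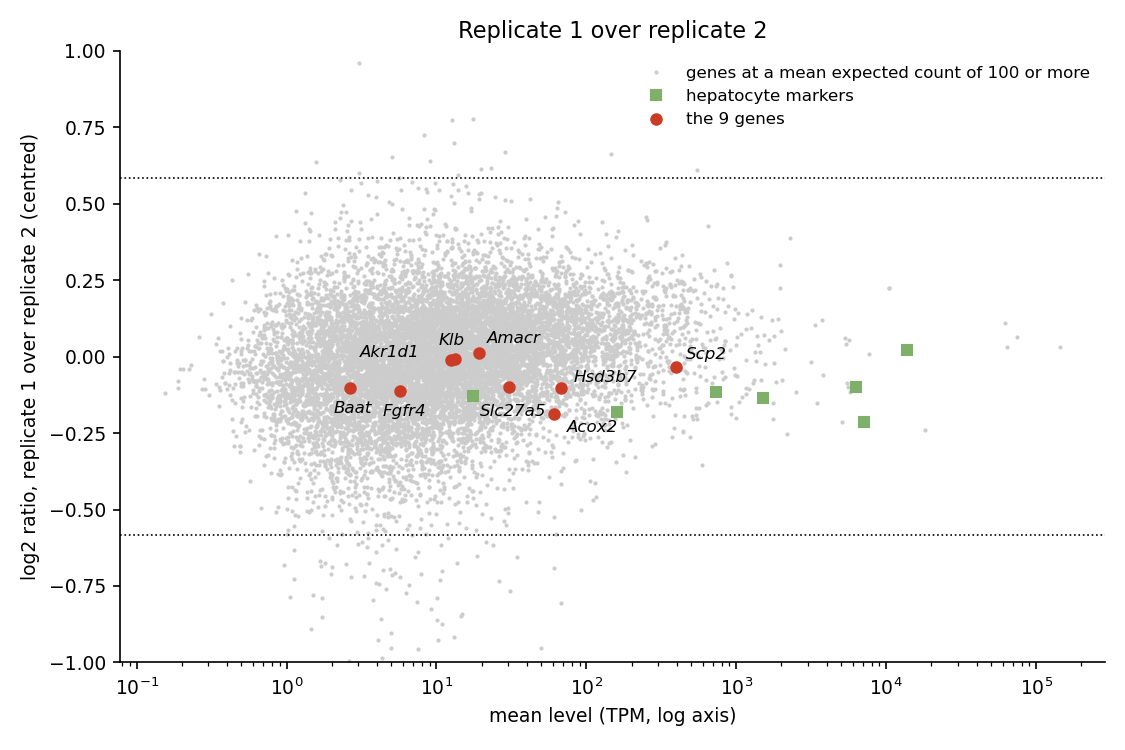
Log2 ratio of replicate 1 over replicate 2, centred, against mean TPM on a log axis, for the 9 genes (red), 7 hepatocyte markers (green) and 12017 genes (grey, of which 50 lie outside the axis), with dotted lines at 1.5-fold. The 9 genes lie within the grey cloud, between -0.19 and 0.01, and Acox2 is the lowest of them.

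Most of the Scp2 RNA was not assigned to the transcript that encodes the thiolase. The leading transcript was Scp2-202, of 772 nt, which starts inside the gene, 47113 nt downstream of the start of the full-length Scp2-201, of 2640 nt. Scp2-202 had 192.08 TPM in replicate 1 and 200.13 TPM in replicate 2, a share of 49.8% ± 0.168 of the gene (SD, n = 2). Scp2-201 had 63.49 TPM in replicate 1 and 47.04 TPM in replicate 2, a share of 14.1% ± 3.32. The coding sequence of Scp2-202, 143 codons, is the in-frame end of the 547 codons of Scp2-201 and begins at its codon 405. In the full-length transcript this point reads as follows on build GRCm38 (chr4:108063982-108071309, minus strand, with an intron between), with the start codon of Scp2-202 in capitals.
Scp2 second start: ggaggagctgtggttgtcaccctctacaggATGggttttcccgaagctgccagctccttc
Both coding sequences therefore share the last 3 codons shown above.

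Grouped by start, transcripts from the internal site held 62.3% ± 6.45 of the TPM of Scp2 and those from upstream starts 14.1% ± 3.34 (SD, n = 2). Internal over upstream TPM was 3.51 in replicate 1 and 5.69 in replicate 2. A further 23.6% ± 3.12 belonged to Scp2-208, a transcript of 868 nt without a coding sequence that starts near the 3′ end of the gene. The noncoding Scp2-203, from the internal site, had 31.08 TPM in replicate 1 and 67.85 TPM in replicate 2, the widest gap of any named transcript of the 9 genes. These shares depend on length: by expected counts, which are not divided by length, upstream starts held 37.2% ± 6.27 and the internal site 43.9% ± 7.47, and Scp2-201 led in replicate 1 and Scp2-202 in replicate 2. Reads from exons that these transcripts share can fit several of them, so their division is the estimate of the authors' model. The upstream forms amounted to 55.4 ± 11.7 TPM (SD, n = 2), beside 61.1 ± 6.22 TPM for Acox2 and 19.2 ± 0.0707 TPM for Amacr, while the internal forms amounted to 246 ± 31.7 TPM.

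**Figure D3:**
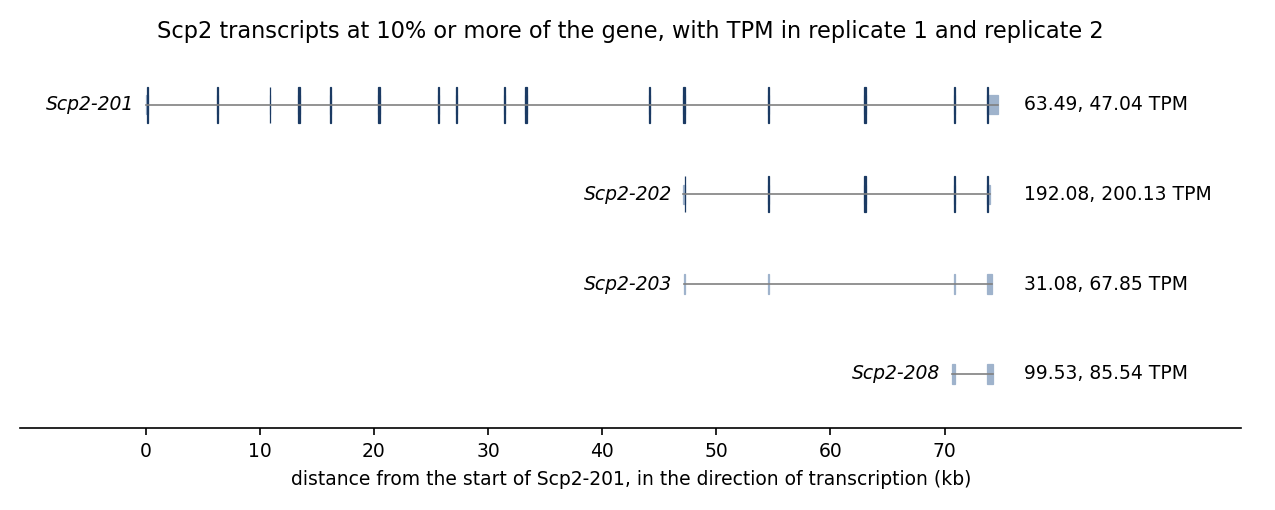
The 4 Scp2 transcripts at 10% or more of the gene, drawn to scale by distance in kb from the start of Scp2-201, with exons as bars (tall and dark where coding) and the TPM of replicate 1 and replicate 2 at the right. Scp2-201, the longest of the 4, has 63.49 and 47.04 TPM, while Scp2-202, from the internal start, has 192.08 and 200.13 TPM.

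As the Scp2 estimates turn on where transcripts start, the stretch before the upstream start is shown. It is the 250 bases before the start in RefSeq on build GRCm38.p6, chr4:108118548-108118797 on the minus strand, in the direction of transcription, with a match to GGGCGG on either strand in capitals.
Scp2 upstream: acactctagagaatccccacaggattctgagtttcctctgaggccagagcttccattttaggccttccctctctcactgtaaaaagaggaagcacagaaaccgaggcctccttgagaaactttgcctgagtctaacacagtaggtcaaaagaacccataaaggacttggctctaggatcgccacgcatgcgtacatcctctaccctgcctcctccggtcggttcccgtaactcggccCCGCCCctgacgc
The match begins 13 bases before the start. Scp2, Hsd3b7, Akr1d1, Acox2, Fgfr4 and Klb had 7 such windows, of which those of Scp2, Hsd3b7 and Fgfr4 held GGGCGG on either strand, against 32.7% of 32851 windows of the mouse. CCAAT was in 1 of the 7, a window of Acox2, against 33.8%. None of the 7 held TATAAA, against 12.4%, CAAAGTCCA, a spelling of the HNF4A site, against 0.384%, or TCAAGGTCA, a spelling of the NR5A2 site, against 0.387%. The HNF4A and NR5A2 spellings are so rare in all windows that their absence from 7 cannot set these genes apart. The windows precede RefSeq starts, which need not be the starts of the transcripts quantified here. The Fgfr4 window ends at chr13:55152817, past the start of Fgfr4-201 at 55152640, and its GGGCGG matches lie beyond that start. The Klb window ends at chr5:65348410, past the start of Klb-201 at 65348314. The Hsd3b7 window ends just past the start of Hsd3b7-201. The windows of Acox2 lie within the span of Acox2-204 and also overlap each other. Windows of Slc27a5, Baat and Amacr were not used here. The Scp2 window had 53.6% G and C and 10 CpG, against 45.2% and 1 CpG for that of Akr1d1 and a median of 52.4% and 6 CpG over all windows.

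Of the other genes with several transcripts, Akr1d1, Fgfr4 and Baat were each dominated by 1. The leading transcript by TPM differed between libraries for 0 of the 5 genes at 10 TPM or more with several transcripts, against 5.15% of 4387 such genes, though by expected counts that of Scp2 differed. By TPM it was also the same for Fgfr4 and Baat, which lie below 10 TPM, and Amacr and Klb have 1 transcript each. The leading transcript held 50% or more in both libraries for 7 of 9 genes, or 3 of those 5, against 76.8% of the 4387. Akr1d1-201 held 95.0% ± 0.544, Fgfr4-201 97.8% ± 0.207 and Baat-201 95.9% ± 5.77 of their genes (SD, n = 2 each). Baat-202, also coding, took 8.16% of the gene in replicate 2 and none in replicate 1.

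Hsd3b7, Slc27a5 and Acox2 were more mixed. Hsd3b7-201 held 68.6% ± 1.23, and the rest lay mostly in transcripts that keep an intron: Hsd3b7-206 held 16.0% ± 0.964, and all retained-intron forms together 25.4% ± 2.44 (SD, n = 2 each). Of Slc27a5, Slc27a5-201 held 60.2% ± 2.16, and a transcript of 543 nt in the authors' annotation, absent from release M21 and so without a name, held 33.4% ± 1.46. By expected counts these shares were 85.0% ± 1.67 and 9.57% ± 0.580, as the short transcript gains most from division by length. Acox2 had no transcript at 50%. Acox2-201 held 41.6% ± 1.56 and Acox2-204, which is also coding and starts 521 nt further upstream, 30.7% ± 1.25. The noncoding Acox2-208 held 14.6% ± 0.644 and Acox2-202 10.3% ± 0.537, so coding transcripts made up 72.3% ± 0.306 of Acox2 (SD, n = 2 each). In all, 17 of the 45 transcripts reached 10% of their gene in either library, and 9 had no count in either. No share over the transcripts of all genes was taken for these counts. Hsd3b7 overlaps Gm49388 on its own strand and 9430064I24Rik on the other, Akr1d1 overlaps the pseudogene Gm7463, and Scp2 overlaps Podn, which had 14 and 31 counts. Since no strand-specific step is stated, reads of the overlap with 9430064I24Rik cannot be told apart by strand. Gm49388, Gm7463 and Podn lie on the same strand as the gene they overlap, where strand could not separate reads. The deposited tables list Gm49388-201 and Gm49388-202 under Hsd3b7, with 0 counts in both libraries. They are among the 45 transcripts and among the 9 without a count.

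**Figure D4:**
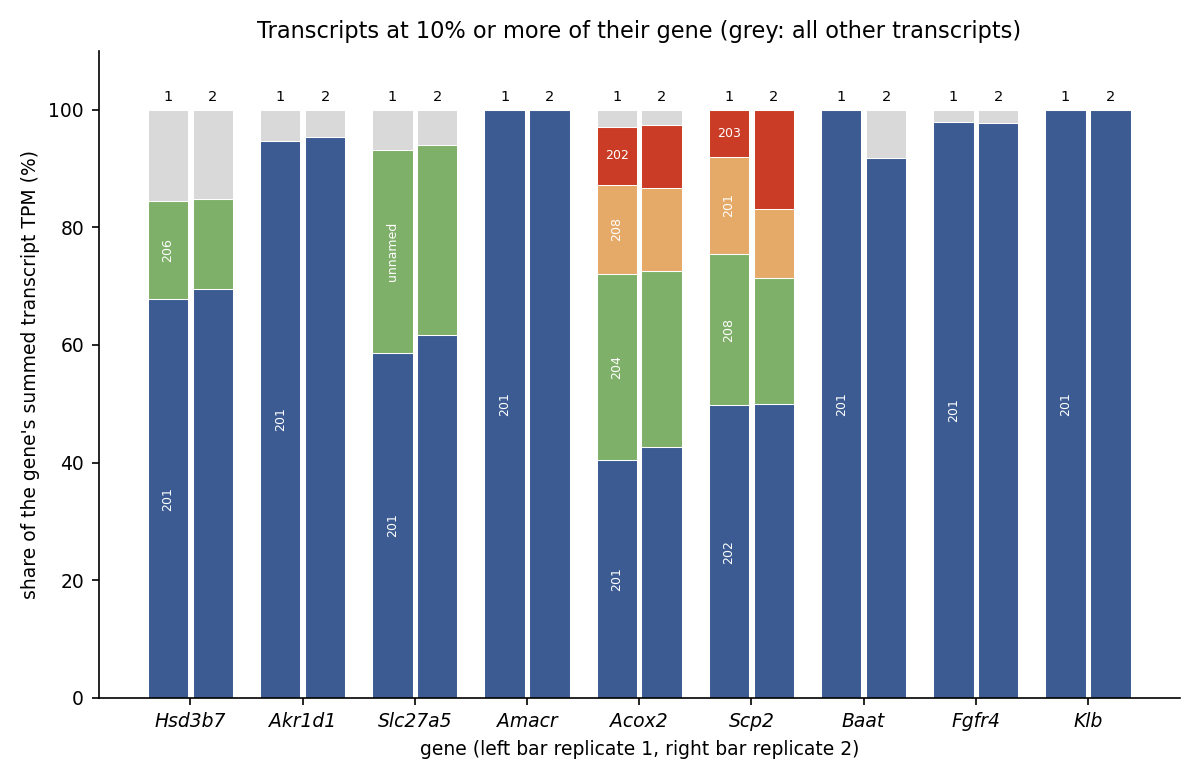
Share of each gene's TPM taken by its transcripts at 10% or more, with replicate 1 as the left bar and replicate 2 as the right bar, numbered by transcript name and with all other transcripts in grey. Amacr, Klb, Fgfr4, Akr1d1 and Baat are nearly 1 transcript each, Acox2 and Scp2 are divided among 4, and Scp2-203 differs most between the libraries.

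The 9 genes had a higher median than a list of the hydroxylases of bile acid synthesis. Their median of 19.2 ± 0.0707 TPM, with 9 of 9 detected, stood beside 4.36 ± 0.594 TPM (SD, n = 2 each) for 8 genes of initiation and hydroxylation, of which 5 reached 1 TPM in both libraries. Cyp7b1, Ch25h and Cyp46a1, the last at 0.14 and 0.17 TPM, lay below 1 TPM, so the list median depends on which genes it includes. Cyp7a1, the rate-limiting enzyme of the classic route, had 1.29 TPM in replicate 1 and 1.77 TPM in replicate 2, on 221 and 293 expected counts, and Hsd3b7 over Cyp7a1 was 45.1 ± 7.34 (SD, n = 2). Cyp8b1, which makes cholic acid possible by 12-alpha-hydroxylation, had 11.47 and 16.56 TPM. Cyp27a1, the side-chain hydroxylase that opens the alternative route, had 6.59 and 7.79 TPM, and Cyp7b1, the next enzyme on that route, had 0.11 and 0.35 TPM. The highest of the list was Cyp2c70, which makes the muricholic acids of rodents, at 33.12 and 37.64 TPM, followed by Cyp8b1 and by Cyp39a1, a 7-alpha-hydroxylase of a side-chain-hydroxylated sterol, at 10.57 and 11.47 TPM, and the lowest was Ch25h at 0.08 and 0.07 TPM. Of these 7-alpha-hydroxylases, Cyp7a1 and Cyp7b1 lay below all 9 genes in both libraries, while Cyp39a1 lay above Fgfr4 and Baat.

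The peroxisomal partners were closest in level. All 12 reached 1 TPM in both libraries, with a median of 24.1 ± 0.343 TPM (SD, n = 2). Slc27a2, a very-long-chain acyl-CoA synthetase that also activates bile acid precursors, had 128.58 TPM in replicate 1 and 131.82 TPM in replicate 2, and Slc27a2 over Slc27a5 was 4.30 ± 0.179 (SD, n = 2). Hsd17b4, the bifunctional enzyme that acts between Acox2 and Scp2, had 41.88 and 41.08 TPM. Acox3, another branched-chain oxidase, was the lowest partner at 3.60 and 3.53 TPM, and Acox2 over Acox3 was 17.2 ± 1.98 (SD, n = 2).

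On the feedback side, the receptor genes were present and the ligand was not detected. Of 13 feedback and FGF signalling genes, 8 reached 1 TPM in both libraries, with a median of 2.23 ± 0.382 TPM (SD, n = 2). Fgf15 had 0 expected counts in both libraries, which at a limit of 3 counts allows up to 0.0417 TPM in replicate 1 and 0.0386 TPM in replicate 2. Fgf21, which also signals through Klb, had 0 as well, allowing up to 0.0858 and 0.0794 TPM. Nr1h4, the bile acid receptor FXR, had 6.52 and 7.33 TPM, while Nr0b2, its target SHP, had 0.44 and 0.79 TPM on 19 and 37 expected counts. The highest of the list were Fgfr2, Nr1h4 and the phosphatase gene Ptpn11, at 5.84 and 6.06 TPM. Kl, the Klotho gene related to Klb, had 0.10 and 0.07 TPM, far below Klb in both libraries.

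Among 13 carriers of bile acids and bile lipids, 7 reached 1 TPM in both libraries, with a median of 1.67 ± 0.339 TPM (SD, n = 2). Slc10a1, the sodium-dependent uptake carrier NTCP, had 23.42 TPM in replicate 1 and 33.93 TPM in replicate 2, the widest gap among the carriers above 10 TPM. Abcb4, the phospholipid exporter, had 20.47 and 20.80 TPM, and Abcb11, the bile salt export pump, had 16.46 and 18.23 TPM. The lowest were Slco1a1 and Slco1a4, each with 1 count in replicate 1 and none in replicate 2. Beside these, Slc27a5 averaged 30.3 ± 1.80, Amacr 19.2 ± 0.0707 and Baat 2.67 ± 0.219 TPM (SD, n = 2 each).

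**Figure D5:**
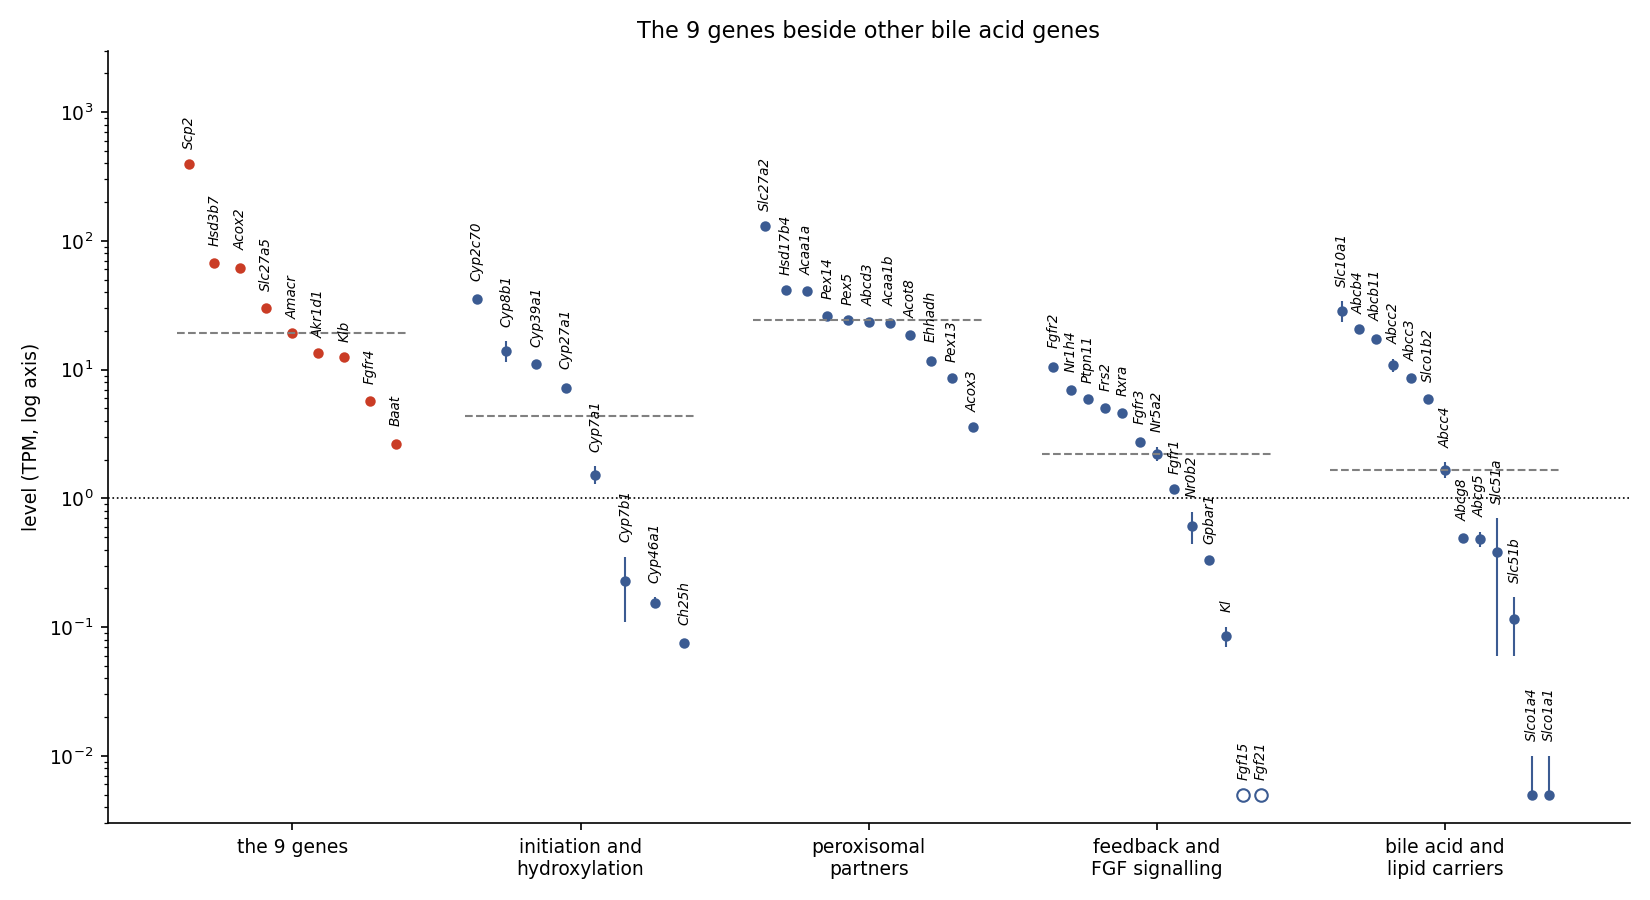
Mean TPM on a log axis of the 9 genes (red) and of 4 lists of other bile acid genes (blue), with vertical lines joining replicate 1 and replicate 2, dashed lines at each median and a dotted line at 1 TPM. Values below 0.005 TPM are drawn at 0.005, and open circles mark Fgf15 and Fgf21 at 0. The 9 genes and the peroxisomal partners all lie above 1 TPM, while Cyp7a1 lies just above it and Cyp7b1 below.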

How the data were processed

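Per the labels, RNA above 200 nt was isolated by the mirVana method, and 10 ng of it entered each SMARTer ultra-low-input library with spike-ins. The authors deposited gene tables (69691 rows) and transcript tables (129984 rows) for both libraries, made on assembly mm10 with GENCODE release M4, per the file headers and accompanying text. The deposited expected counts need not be whole, since shared reads are divided among transcripts. In the deposited TPM, all rows of a table add up to a fixed total, spike-ins among them. The deposited signal columns hold the posterior mean of TPM and the bounds of its interval, whose level is not stated. The deposited FPKM served only as an alternative. Transcript shares were computed here from TPM, as the deposited percent columns were. The column names are those of RSEM, whose version and aligner are not given in the sources used here. Kit capture and the division of reads among transcripts could both shift levels and shares.

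Symbols and coordinates came from GENCODE release M21 on GRCm38, the build also called mm10, by ID without version, which matched 42462 of 43346 Ensembl genes. Promoter windows came from a RefSeq table on GRCm38.p6. Total expected counts were 44477766 in replicate 1 and 48820712 in replicate 2. Reads carry no molecular identifiers, so intervals and the limit of 3 counts cover counting error only. A count was called whole within a tolerance of 0.01. Levels are means ± SD of 2 libraries of 1 group, so no test between conditions exists and no p-value is given. The 9 genes, the gene lists and the thresholds were chosen with earlier results of these data known. Named were the 9 genes, their transcripts at 10% or more, the 3 highest and the lowest of each list, and fixed pathway genes, except 1 gene that counts in its list and is not reported here. Ehhadh, Acot8, Kl, Cyp46a1, the bile duct genes, marker genes at 0, overlapping genes and the pseudogene were named after their values were seen. Ratios were tested on simulated data with known changes. Alternatives used edgeR 4.0.16 (TMM) and DESeq2 1.42.0 size factors on rounded counts in R 4.3.3, and python 3.11.15 with numpy 2.4.6, pandas 2.3.3 and matplotlib 3.10.9 did the rest.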

Additional observations from a re-analysis of the deposited data

How the results depend on the processing

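Rescaling moved levels together. With TPM rescaled over nuclear protein-coding genes outside the globins, each of the 9 levels was 1.92 times higher and their median was 36.7. That median was 18.9 as posterior mean TPM, 17.985 as FPKM, 19.4 relative to the spike-ins, 44.5 as TMM-scaled counts with no division by length, and 0.653 per 1000 TPM of hepatocyte markers, an alternative chosen after seeing the data. Without division by length, Klb over Fgfr4 was 2.33 and Slc27a5 over Baat 9.71. The last was 11.1 as posterior mean TPM and 7.58 without the transcript absent from release M21, also chosen after seeing the data. At 100 TPM, 1 gene remained of the 9 detected at 1 TPM, with no share over all genes taken at that cut. None of the 9 passed the fold threshold between libraries under any of the 12 alternatives tried, 1.2-fold among them, while the share of all genes past the threshold ran between 0.416% at 2-fold and 12.5% at 1.2-fold. By expected counts, 1 gene, Scp2, changed its leading transcript between libraries, and its upstream share was 37.2%. That share was 18.6% without Scp2-208, a choice made after seeing the data. Each replicate alone gave a median between 19.1 and 19.2 TPM, Klb over Fgfr4 between 2.10 and 2.29, Slc27a5 over Baat between 11.2 and 11.6, and an upstream Scp2 share between 11.8% and 16.5%. A differing leading transcript cannot be counted with 1 library. No paired analysis was possible because there is 1 group. Depth limits Baat most, at 195 and 229 expected counts.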
